A study of Mus musculus with 15 samples.

Results

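A set of 13 genes was silent in wild-type (WT) mouse 2-cell embryos and present in 2-cell embryos that lacked maternal Usp16. They were chosen by their measured values from 14392 listed genes, of which they made up 0.0903%. A gene was taken when both WT 2-cell libraries were at the floor of the table, the mean of both WT zygote libraries was below 3 and both cKO 2-cell libraries were at least 2. Symbols that start with Zfp were left out, which removed 1 gene. Values are FPKM, which are fragments scaled to exon length and to the mapped fragments of the library, and every value below 1 had been set to 1, so a gene at the floor was not above 1 FPKM and may still have been transcribed. The WT and cKO 2-cell values therefore chose the members, and the difference between them is described here without a test.

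RNA was sequenced from zygotes and 2-cell embryos of both genotypes on a C57BL/6 background, with 2 libraries for each of 4 groups. WT embryos had WT parents, and cKO embryos came from Usp16 fl/fl;Gdf9-Cre females mated with WT males, which the labels give as a maternal null and a paternal functional allele. Females were superovulated at 21 to 23 days of age, males were 10 to 12 weeks old, and embryos of all groups were cultured in KSOM medium and had their zona pellucida removed. Each library was a pool of 10 embryos, amplified by the oligo-dT-primed Smart-seq2 method, and the labels do not say whether libraries of a group came from separate females or matings. Gdf9-Cre acts in oocytes from primordial follicles onward, so maternal product was lost while the paternal allele could be transcribed after fertilization. In a pool of embryos, fewer cells with a transcript and less transcript per cell cannot be told apart.

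USP16 removes ubiquitin from histone H2A, a mark (H2AK119ub1) that polycomb repressive complex 1 places on repressed genes. In the mouse embryo, large-scale transcription of the new genome begins at the 2-cell stage, while many RNAs inherited from the oocyte are degraded. The maternal deletion was visible in zygotes. Usp16 was at 184 and 187 FPKM in WT zygotes, 16.8 and 22.0 in cKO zygotes, 168 and 183 in WT 2-cell embryos, and 168 and 84.8 in cKO 2-cell embryos. The listed oocyte and zygote markers were above the floor in all zygote libraries (13 of 13), and 6 of 7 listed genome activation genes were above it in both libraries of each 2-cell group, with a summed FPKM of 495 to 749 in WT and 178 to 226 in cKO 2-cell embryos. Genes at the floor numbered 1642 and 1716 in the WT 2-cell libraries and 3684 and 4240 in the cKO 2-cell libraries. The summed FPKM of cKO 2-cell replicate 2, 770989, stood apart from the range of 547752 to 593317 in the other libraries.

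Among the 13 genes, 11 were at the floor in all 6 libraries other than cKO 2-cell. The exceptions were Dydc2 and Smyd2. Roles among the members were unlike one another: an RNase P RNA-like gene (Rprl3), a testis gene (Dydc2), 3 metabolic or processing proteins (Mogs, Pgam2, Slc13a3), secreted or surface proteins (Icam2, Defb25, Igfbp3), 1 transcription factor (Sox21), methyltransferases (Smyd2, Fam173a) and genes without an established name (BC096441, Gm5148). The mean cKO 2-cell FPKM ran from 2.24 to 31.0 with a median of 4.01, close to the median of 4.37 over all listed genes. Only Rprl3 and Dydc2 exceeded 10 in both cKO 2-cell libraries, and 8 of the 13 stayed below 5 in both.

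**Figure D1:**
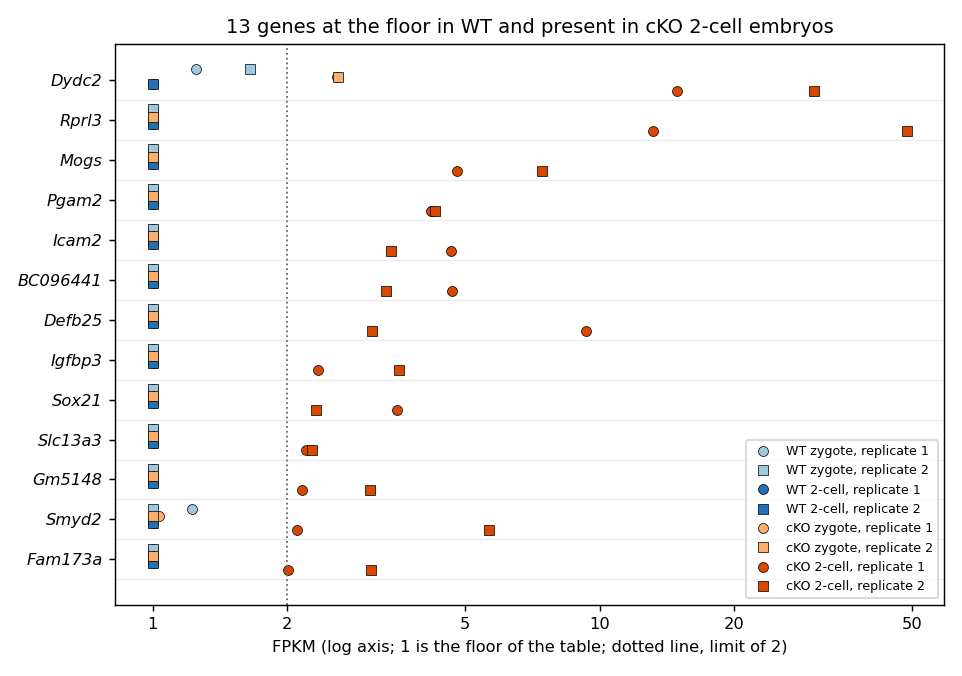
FPKM of each member in the 8 libraries, on a log axis, with circles for replicate 1 and squares for replicate 2; symbols at the floor of 1 lie on each other. Orange-red symbols of the cKO 2-cell libraries lie at or right of the dotted limit of 2 because the rule placed them there, and Rprl3 and Dydc2 lie farthest right.

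Rprl3 encodes a nuclear RNA related to the RNA subunit of RNase P, the enzyme that trims the 5′ end of transfer RNA precursors. It was listed at 1 in every WT and zygote library, whereas cKO 2-cell embryos had 13.2 and 48.7 FPKM. The cKO mean of 31.0 ± 25.1 (SD, n = 2) was at least 31.0-fold above the floor, and no listed gene had a larger 2-cell fold. Its replicates also differed most among the members, by 3.70-fold. Rpph1, the RNase P RNA gene itself, was at 8.33 and 6.66 FPKM in WT and at 10.7 and 35.5 in cKO 2-cell embryos, so both cKO libraries were above both WT libraries and replicate 2 was again the higher. Rpph1 was already present in zygotes, at 15.5 and 11.4 FPKM in WT and 29.7 and 14.5 in cKO. Rmrp, the RNA of the related RNase MRP, was at or near the floor in every library, with a highest value of 1.87. FPKM estimates of such short RNAs can depend strongly on the assumed fragment length. Reads shared by Rprl3 and Rpph1 could have been split between them. The libraries were primed with oligo-dT, and how well that captured these RNAs was not tested.

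Dydc2 encodes a DPY30 domain protein known from the testis. Its FPKM was 1.25 and 1.65 in WT zygotes, 2.58 and 2.60 in cKO zygotes, 1 and 1 in WT 2-cell embryos, and 14.9 and 30.2 in cKO 2-cell embryos. The cKO 2-cell mean of 22.5 ± 10.8 (SD, n = 2) was at least 22.5-fold above the floor, the second largest fold of the table. Dydc2 was the only member above 2 in either cKO zygote library, and both of its cKO zygote libraries lay above both WT zygote libraries. In WT embryos it went from low values in zygotes to the floor at the 2-cell stage, whereas from cKO zygotes to cKO 2-cell embryos its mean was 8.70-fold higher. Dydc1, a related gene on the opposite strand 3703 bases away, was at the floor in all zygote libraries, at 1 and 2.35 FPKM in WT 2-cell embryos, and at 1.79 and 6.36 in cKO 2-cell embryos, so its groups overlapped. The summed FPKM of the 7 listed spermatozoa markers was 22.4 and 62.9 in cKO and 41.1 to 47.7 in WT 2-cell embryos, and Prm1, Prm2, Odf1 and Acrv1 were at the floor in both cKO 2-cell libraries. Ldhc, the sperm lactate dehydrogenase, made up most of the sum in cKO replicate 2, with 12.6 and 56.9 FPKM in cKO and 21.8 and 20.9 in WT 2-cell embryos.

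Mogs encodes glucosidase I, which removes the first glucose from N-linked glycans in the endoplasmic reticulum. It was listed at the floor in the 6 other libraries and at 4.81 and 7.43 FPKM in cKO 2-cell embryos (6.12 ± 1.86, SD, n = 2; at least 6.12-fold). Of 22 listed N-glycan processing genes, 20 were above the floor in both WT 2-cell libraries, where the rule had placed Mogs at the floor. Those libraries had only 1642 and 1716 of 14392 listed genes at the floor, so this is no trait of the pathway. In cKO, 5 of the 22 were more than 3-fold lower and 1, Mogs, more than 3-fold higher, against 13.5% and 2.84% of all listed genes. Wbp1 lies on the opposite strand, with a gap of 146 bases between the 2 annotated genes. It was at 4.26 and 4.99 FPKM in WT and at 2.37 and 7.37 in cKO 2-cell embryos.

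Pgam2 encodes the muscle form of phosphoglycerate mutase, a glycolytic enzyme. Its cKO 2-cell values, 4.20 and 4.27 FPKM, were among the closest pairs of the set, against the floor in the 6 other libraries, and its mean was 4.24 ± 0.055 (SD, n = 2). Pgam1, the widely expressed form, was at 47.9 and 58.8 FPKM in WT and at 138 and 54.6 in cKO 2-cell embryos, with overlapping groups. Slc13a3, a sodium-coupled carrier of dicarboxylates, had the lowest mean of the set, 2.24 ± 0.051 (SD, n = 2), from 2.20 and 2.28 FPKM. Slc13a2, the related citrate and succinate carrier, went the other way, with 6.99 and 14.4 FPKM in WT and 2.75 and 1.07 in cKO 2-cell embryos.

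Promoter windows of 12 members could be read, since Rprl3 was not found under that symbol in the annotation. Each window is the 250 bases before the start of the gene's longest coding transcript, from the mm9 (NCBIM37) genome with GENCODE M1. Another transcript of the gene starts farther upstream in 5 members (Dydc2, Icam2, Igfbp3, Gm5148 and Fam173a), whose windows therefore lie partly or wholly inside the gene, and 7 windows lie outside it. Of these 7, the windows with the fewest CG dinucleotides (Pgam2) and the most (Smyd2), and that of the member with the highest lower cKO 2-cell value (Mogs), are shown to make the range of base composition visible. They are written 5′ to 3′ on the gene's strand, and capitals mark each CG.
Pgam2, chr11:5703737-5703986, minus strand: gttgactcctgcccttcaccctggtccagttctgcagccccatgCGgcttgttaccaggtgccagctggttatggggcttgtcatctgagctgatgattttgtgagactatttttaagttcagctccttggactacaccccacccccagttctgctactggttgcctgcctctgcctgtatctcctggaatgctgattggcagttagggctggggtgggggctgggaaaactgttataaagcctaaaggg
Mogs, chr6:83065240-83065489, plus strand: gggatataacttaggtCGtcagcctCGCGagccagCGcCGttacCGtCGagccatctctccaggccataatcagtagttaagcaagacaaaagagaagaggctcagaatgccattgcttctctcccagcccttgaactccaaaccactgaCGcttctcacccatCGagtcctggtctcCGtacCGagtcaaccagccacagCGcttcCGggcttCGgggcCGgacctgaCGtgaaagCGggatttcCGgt
Smyd2, chr1:191746243-191746492, minus strand: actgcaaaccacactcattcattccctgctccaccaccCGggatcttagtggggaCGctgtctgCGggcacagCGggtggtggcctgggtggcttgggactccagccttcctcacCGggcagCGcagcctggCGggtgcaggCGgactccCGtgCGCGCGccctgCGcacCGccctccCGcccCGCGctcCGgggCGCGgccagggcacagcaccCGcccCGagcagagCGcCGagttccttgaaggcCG
Pgam2 held 1 CG, compared with 18 in Mogs and 25 in Smyd2, and over all 12 windows the number ran from 1 (Dydc2 and Pgam2) to 33 (Igfbp3). The ratio of observed to expected CG exceeded 0.6, a usual mark of CpG islands, in 5 of the 12 promoters (41.7%: Mogs, Igfbp3, Sox21, Smyd2 and Fam173a), compared with 59.6% of 13775 annotated listed genes. Short motifs were counted on both strands. TATAAA was found in 1 of 12 members (8.33%; Pgam2, beginning 16 bases before the start) and in 7.97% of the windows of all annotated listed genes, GGGCGG in 6 (50%) and 53.1%, CCAAT in 3 (25%) and 36.1%, and CACGTG in 2 (16.7%; Defb25 and Slc13a3) and 8.13%. With 12 windows, each share moves by 8.33 percentage points per gene, and no motif was held by all members. A match of letters describes the window and shows no binding.

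Defb25, a beta-defensin of the male reproductive tract, was at 9.32 and 3.10 FPKM in the cKO 2-cell libraries and at the floor in the 6 others (6.21 ± 4.40, SD, n = 2; at least 6.21-fold). The value in replicate 1 was 3.01-fold that of replicate 2. Of 16 listed beta-defensin genes, Defb25 alone was more than 3-fold higher in cKO 2-cell embryos, and 4 were more than 3-fold lower. Over all listed genes the shares were 2.84% and 13.5%. Defb48, for example, was at 15.8 and 19.4 FPKM in WT and at 1.36 and 3.61 in cKO 2-cell embryos. Defb23, which like Defb25 was near the floor in zygotes, was at 11.7 and 10.97 in WT and at 9.87 and 2.996 in cKO 2-cell embryos.

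Icam2, an adhesion molecule of endothelium and blood cells, was at 4.65 and 3.41 FPKM in the cKO 2-cell libraries (4.03 ± 0.882, SD, n = 2). Icam1 was at the floor in all zygote libraries, like Icam2, but at 7.04 and 9.65 FPKM in WT and 4.30 and 2.61 in cKO 2-cell embryos. Of 10 leukocyte markers, 3 were listed, whose sum is 3 when all are at the floor. They summed to 7.98 to 11.8 FPKM in WT and 3.94 to 4.52 in cKO 2-cell embryos. The source of the Icam2 signal was not tested. Igfbp3, the main carrier of insulin-like growth factors in blood, was at 2.34 and 3.55 FPKM in cKO 2-cell embryos (2.95 ± 0.854, SD, n = 2). Its relative Igfbp2 was at 15.6 and 14.7 FPKM in WT and at 5.93 and 10.2 in cKO 2-cell embryos. None of the 5 listed binding protein genes passed a 3-fold difference in either direction.

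Sox21, a transcription factor of neural progenitors, was at 3.52 and 2.32 FPKM in the cKO 2-cell libraries (2.92 ± 0.853, SD, n = 2) and at the floor elsewhere. Of 12 listed Sox genes, 10 were above the floor in both WT 2-cell libraries, which had 1642 and 1716 of 14392 listed genes at the floor. In cKO, 3 Sox genes (Sox2, Sox8 and Sox18) were more than 3-fold lower and 0 more than 3-fold higher. Over all listed genes these shares were 13.5% and 2.84%. Sox2, the pluripotency factor, was at 3.21 and 3.23 FPKM in WT and at the floor in both cKO 2-cell libraries, the reverse of Sox21. The wider list of 172 developmental transcription factors had 1 member in the set, Sox21, compared with 18 that met the same limits with the genotypes exchanged. Over all listed genes these numbers were 13 and 293, so the imbalance was not particular to this list. The list's median log2 fold of −0.84 lay below that of −0.38 over all listed genes. An annotated long noncoding RNA, Gm4675, overlaps 713 exonic bases of Sox21 on the opposite strand, which is 18.8% of its exonic bases, and the library method keeps no strand, so reads from the overlap cannot be told apart.

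Smyd2, a lysine methyltransferase of histone and other proteins, was at 1.22 and 1 FPKM in WT zygotes, 1.03 and 1 in cKO zygotes, 1 and 1 in WT 2-cell embryos, and 2.10 and 5.67 in cKO 2-cell embryos (3.88 ± 2.52, SD, n = 2). Other Smyd genes were not silent in WT. Smyd5 was at 12.9 and 12.3 FPKM in WT and at 49.0 and 19.8 in cKO 2-cell embryos, and Smyd3 at 3.35 and 3.76 in WT and 9.30 and 5.03 in cKO, so that both cKO libraries lay above both WT libraries for each. Smyd4 went the other way, with 2.32 and 3.84 FPKM in WT and 2.08 and 1 in cKO, both cKO libraries below both WT libraries. Fam173a, a lysine methyltransferase of the mitochondrial ADP/ATP carrier, was the member nearest to the limit, at 2.01 and 3.08 FPKM (2.54 ± 0.755, SD, n = 2). Its paralog Fam173b was at 3.80 and 3.17 FPKM in WT and 1.25 and 2.72 in cKO 2-cell embryos.

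**Figure D2:**
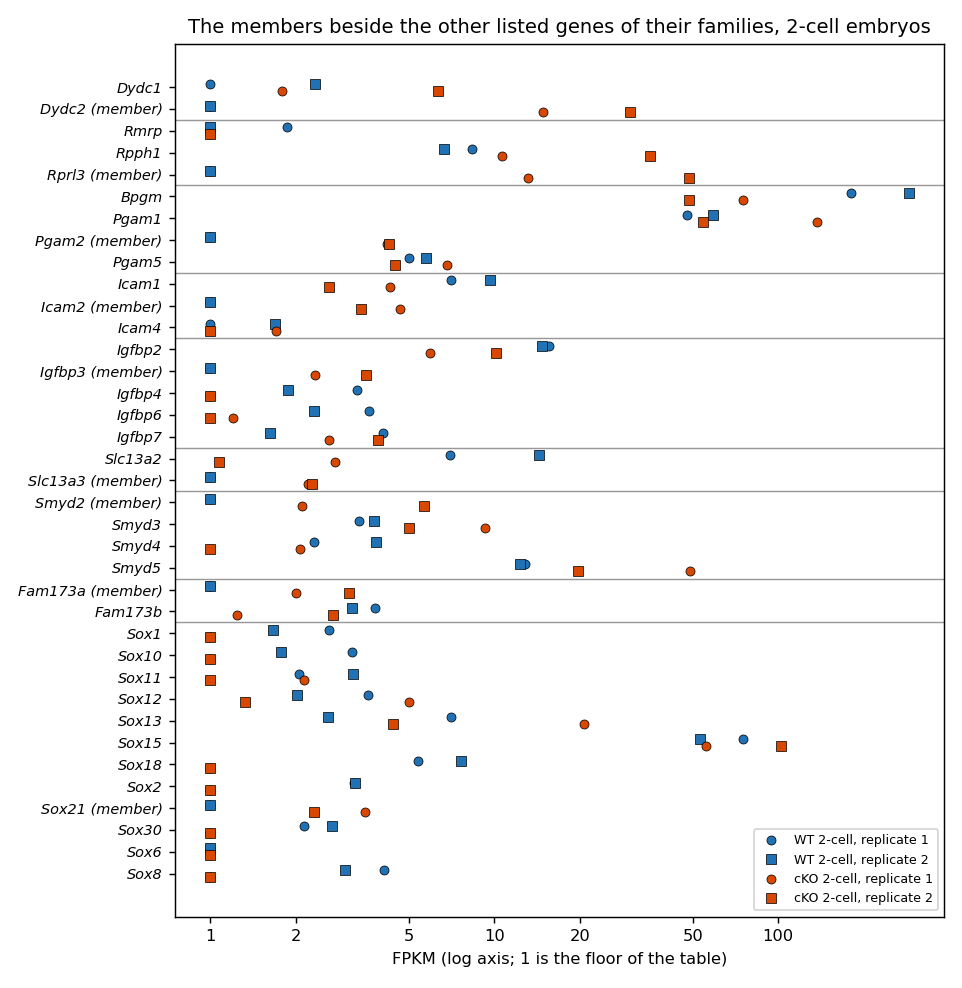
FPKM in the 4 2-cell libraries, on a log axis, of 9 members and the other listed genes of their families, with blue for WT and orange-red for cKO, circles for replicate 1 and squares for replicate 2. Members sit at the floor in WT because the rule placed them there. Relatives such as Pgam1, Icam1, Igfbp2 and Sox2 were above it in both WT libraries, like most listed genes, and Sox2 sits at the floor in cKO.

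The values of BC096441 and Gm5148 rest partly on sequence that other genes share. BC096441 lies on the minus strand of chromosome 11 of mm9, at chr11:69496079-69509600, and its transcripts join exons of Tnfsf12 and Tnfsf13, ligands of the tumour necrosis factor family (TWEAK and APRIL). It shares 731 exonic bases (32.7%) with Tnfsf12 and 983 (44.0%) with Tnfsf13 on the same strand, and 69.9% of the 50-base windows of its longest transcript, the length to which reads had been trimmed, also occurred in those genes. BC096441 was at 4.69 and 3.33 FPKM in the cKO 2-cell libraries (4.01 ± 0.961, SD, n = 2) and at the floor elsewhere. Tnfsf12 was at the floor in zygotes, at 20.6 and 19.6 in WT and at 17.8 and 6.43 in cKO 2-cell embryos, and Tnfsf13 was at 2.85 and 2.57 in WT and at 1 and 1.79 in cKO, after 1 and 1 in WT and 1.36 and 2.02 in cKO zygotes. At the 2-cell stage both neighbours were lower in each cKO library than in each WT library, opposite to BC096441. How much of the BC096441 value came from reads of shared exons was not tested.

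**Figure D3:**
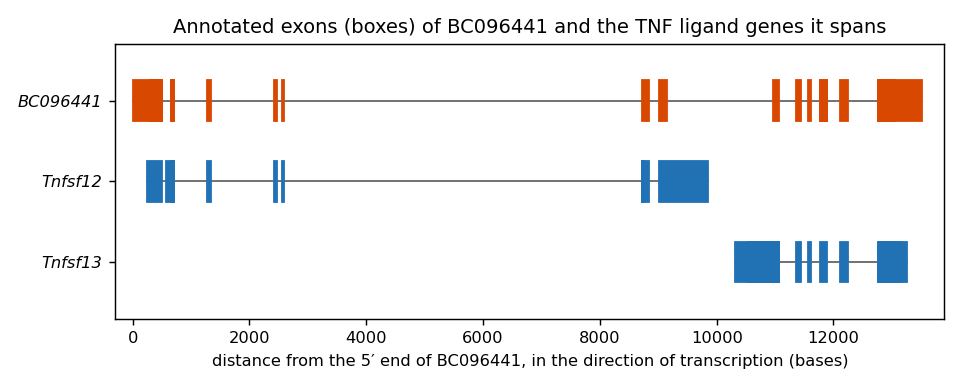
Annotated exons (boxes) of BC096441, Tnfsf12 and Tnfsf13 against the distance in bases from the 5′ end of BC096441, all transcripts of a gene merged. Most exons of BC096441 coincide with exons of one of the other genes, with 731 bases shared with Tnfsf12 and 983 with Tnfsf13.

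Gm5148, a predicted gene at chr3:37613112-37623412 on the minus strand of mm9, was at 2.16 and 3.06 FPKM in the cKO 2-cell libraries (2.61 ± 0.64, SD, n = 2). Its longest transcript holds 426 bases identical to Rps23, which encodes a protein of the small ribosomal subunit, on the opposite strand, and a pseudogene, Gm15450, is annotated there. The first 60 coding bases of Rps23, shown because they also stand in Gm5148 as the reverse complement of its transcript bases 681 to 740, read as follows.
Rps23, coding bases 1 to 60: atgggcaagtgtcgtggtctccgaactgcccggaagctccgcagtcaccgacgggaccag
Of the 50-base windows of the Gm5148 transcript, 377 of 1233 (30.6%) occurred in Rps23 on the opposite strand. Rps23 was at 329 and 250 FPKM in WT and at 679 and 1381 in cKO 2-cell embryos, compared with 13.4 to 18.4 in zygotes, so the order of the cKO replicates was the same as for Gm5148. Whether reads of Rps23 contributed to the value of Gm5148 was not tested.

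Annotated positions of the 12 located members were spread over 7 chromosomes, with 4 on chromosome 11 (Pgam2, Icam2, BC096441 and Igfbp3), which carries 8.29% of the annotated listed genes. Those 4 genes were not next to each other: Pgam2 starts at 5703736 and Igfbp3 at 7113926, while BC096441 and Icam2 start at 69509600 and 106249389. The remaining positions were chr14:41862498-41882497 for Dydc2, chr6:83065490-83068892 for Mogs, chr2:152448092-152448789 for Defb25, chr14:118632454-118636252 for Sox21, chr2:165230528-165298730 for Slc13a3, chr1:191704371-191746242 for Smyd2 and chr17:25927453-25929332 for Fam173a. The longest coding transcripts ran from 293 bases (Defb25) to 3799 (Sox21) with a median of 1481, compared with 2662 over all annotated listed genes. Only Mogs lies on the plus strand.

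At the 2-cell stage, 8 of the 13 members had a cKO mean more than 3-fold above WT (Rprl3, Dydc2, Defb25, Mogs, Pgam2, Icam2, BC096441 and Smyd2), where 2.84% of all listed genes were that much higher and 13.5% that much lower. Both cKO libraries lay above both WT libraries for 14% of listed genes, and for the members by construction. Since the rule used this contrast, nothing is read from these counts. With 1 added to each value, 4 members exceeded 3-fold. The median log2 fold was 2.00 over the members and −0.38 over all listed genes.

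The cKO zygote libraries were the only group that the rule did not use. Both were at the floor for 11 of the 13 members (84.6%), compared with 372 of 862 other genes (43.2%) that met the WT limits and not the cKO limit. The same held in WT zygotes, whose mean the rule capped. There, 11 of the 13 members and 418 of the 862 others (48.5%) were at the floor in both libraries. Genes below 1 in every library had been dropped from the data. Of the others, 489 were at the floor in all 2-cell libraries and are therefore listed only through a zygote library. That filter lowers the share of the others at the floor in zygotes, so nothing is read from either gap. In 8 of 13 members the mean was more than 3-fold higher in cKO 2-cell embryos than in cKO zygotes, against 22.8% of all listed genes, a contrast of which the rule used the 2-cell side. Between cKO and WT zygotes, 0 of 13 members exceeded 3-fold higher (0.104% of listed genes). Because 11 members were at the floor in all 4 zygote libraries, only Dydc2 and Smyd2 could differ there. Neither was called higher in cKO zygotes by limma on log2(FPKM + 1) with Benjamini-Hochberg adjustment at 0.05, which called 0.0208% of listed genes, nor at an unadjusted p under 0.05, which 2.25% of listed genes passed. Smyd2 had a log2 fold change of −0.07 (standard error 0.33, adjusted p = 1 in limma). Dydc2 had a log2 fold change of 0.56 on that scale (standard error 0.33, unadjusted p = 0.142, adjusted p = 1 in limma). The fit shares its spread with the cKO 2-cell libraries, and with the zygote libraries alone limma gave Dydc2 an unadjusted p of 0.0144 and an adjusted p of 0.786. Dydc2 was higher in 2 of 2 cKO zygote libraries. The same 8-library fit did not call the loss of Usp16, the deleted gene, in cKO zygotes. Its log2 fold change there was −3.21 (standard error 0.34, adjusted p = 0.191 in limma). The absence of a call for Dydc2 and Smyd2 therefore says little. The smallest two-sided p of an exact permutation test between 2 pairs of libraries is 0.333, and with libraries that may share embryo donors these p-values measure only the spread between the libraries.

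How often the replicates gave the same gene was asked by leaving out 1 cKO 2-cell library at a time. A total of 875 genes met the WT limits, and 13 of them (1.49%) were members. In replicate 1, 53 of the 875 (6.06%) were at least 2, and 24.5% of those also reached 2 in replicate 2, while 30 of the 53 were at the floor there. In replicate 2, 99 (11.3%) were at least 2, and 13.1% of those reached 2 in replicate 1, while 70 of the 99 were at the floor there. These values chose the members, so the shares are a description. Of the 875, 489 were at the floor in both cKO 2-cell libraries, 333 were above it in exactly 1 and 53 in both. For the members, the higher cKO replicate was a median of 1.52-fold the lower, against 1.62-fold over the 7852 genes that were at least 2 in both libraries. The replicate 2 value was the higher for 9 members and the replicate 1 value for 4 (Icam2, BC096441, Defb25 and Sox21).

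**Figure D4:**
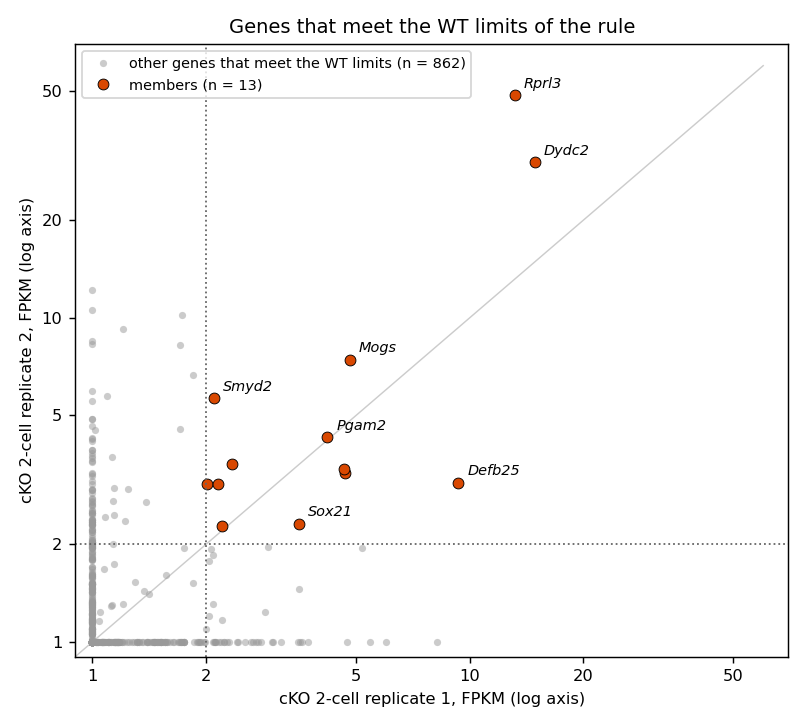
FPKM in cKO 2-cell replicate 2 against replicate 1, on log axes, for the 875 genes that met the WT limits; orange-red points are the 13 members and grey points the other 862, and dotted lines mark the limit of 2. Of the genes that reached 2 in 1 library, 30 and 70 lie on the floor line of the other library, and Rprl3 and Dydc2 lie apart from the rest.

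Just inside the limit lay Fam173a (2.01 in its lower cKO 2-cell library), Smyd2 (2.10) and Gm5148 (2.16). Just outside lay Ciz1, with 2.92 and 1.97 FPKM in the cKO 2-cell libraries, B4galnt1, with 5.19 and 1.95, and Ccdc71, with 2.07 and 1.93. Ciz1 and B4galnt1 were at the floor in the 6 other libraries, whereas Ccdc71 was also present in zygotes, at 2.65 and 2.02 in WT and 3.19 and 2.11 in cKO. With a limit of 3 in place of 2, 7 members were left, namely Rprl3, Dydc2, Mogs, Pgam2, Icam2, BC096441 and Defb25. After median-ratio scaling of the libraries and a common floor, 54 genes met the rule, and the 13 members were among them. The common floor was then 1.26. WT 2-cell values were divided by 1.23 and those of cKO 2-cell replicate 2 by 0.794. Higher deposited WT values thus counted as silent, and lower ones of cKO replicate 2 passed the limit.

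The same limits with the genotypes exchanged, silent in cKO and present in WT 2-cell embryos, were met by 293 of 2215 genes (13.2%), which was 22.5 times the number of members. That ratio was 4.54 after median-ratio scaling, which shifts the limits on deposited values. There, 245 genes met the exchanged rule and 54 the rule. When the 2-cell library left out of one rule had its counterpart left out of the other, the ratio was 4.79 and 9.40 without replicate 1 and 2 of the group in which genes were present, and 17.2 and 17.8 without replicate 1 and 2 of the group in which they were silent. In the exchanged rule, 58.8% of the genes that reached 2 in WT replicate 1 also did so in replicate 2, and 61.8% the reverse. Counting genes above the floor in 1 group alone gave the same order, but from the same values, so it adds no separate support. WT 2-cell embryos had 1210 such genes, of which 188 were at least 2 in both libraries, and cKO 2-cell embryos had 305, of which 12 were. In cKO zygotes the numbers were 113 and 2, and in WT zygotes 74 and 0. The 12 genes of cKO 2-cell embryos comprised the 11 members at the floor in the 6 other libraries and Zfp133-ps, the zinc finger symbol left out by the rule.

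**Figure D5:**
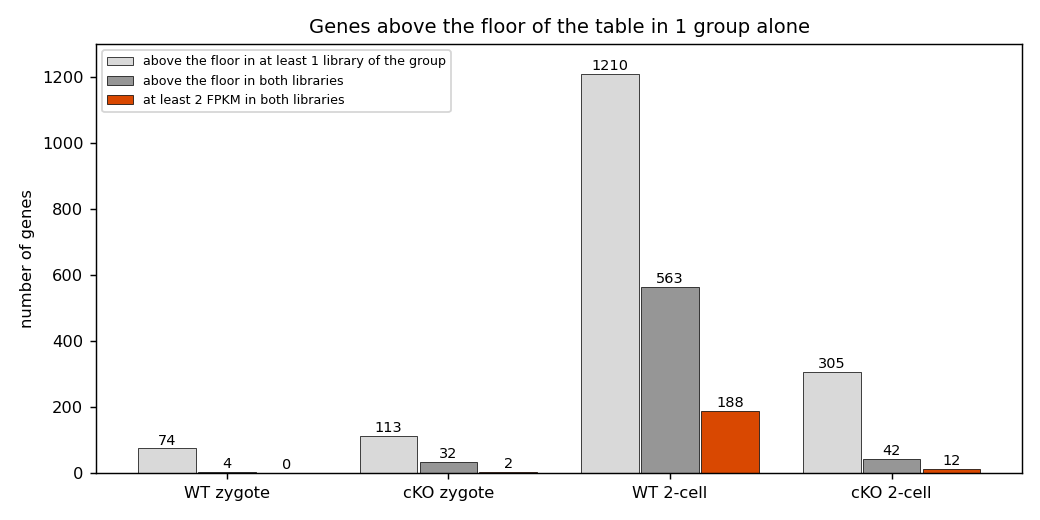
Number of genes above the floor of 1 FPKM in a single group and at the floor in all libraries of the other 3 groups; light grey bars count genes above the floor in at least 1 library of the group, dark grey bars in both, and orange-red bars those with at least 2 FPKM in both. The orange-red bar is 188 genes in WT 2-cell and 12 in cKO 2-cell embryos.

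By gene class, 6 of 15 lists held a member: sperm and testis genes (Dydc2), developmental transcription factors (Sox21), immune receptors and effectors (Defb25), transporters (Slc13a3), cell adhesion molecules (Icam2) and predicted genes (BC096441 and Gm5148). Except for predicted genes, each held 1, and the other 9 lists, among them secreted signals, G protein-coupled receptors, ion channels and germline antigens, held 0. In cKO 2-cell embryos, 4 of 71 sperm and testis genes were more than 3-fold higher and 12 more than 3-fold lower, and of 209 immune genes 3 were higher and 27 lower. Of 335 transporters, 3 were higher and 40 lower, and of 92 adhesion genes 2 were higher and 21 lower. Of 2015 predicted genes, 58 were higher and 255 lower. In each of these lists more genes were lower than higher, as over all listed genes (409 higher and 1940 lower). Summed markers of other cells were lower in cKO or overlapped between the genotypes. The listed cumulus and granulosa markers (3 of 15) summed to 3 to 3.32 FPKM in cKO and 4.38 to 10.3 in WT 2-cell embryos. In the same order, fibroblast markers (3 of 6) summed to 3 to 3.07 and 4.90 to 4.99, and erythroid markers (2 of 8) to 3.97 to 4.49 and 9.83 to 12.3. Oviduct epithelium markers (7 of 10) summed to 111 to 151 in cKO and 113.1 to 159 in WT. Most of these oviduct sums came from Epcam and Cd24a, which had unlike patterns. Epcam was at 44.4 and 82.4 FPKM in WT and at 75.2 and 114 in cKO, with overlapping groups. Cd24a was at 57.4 and 66.4 in WT and lower, at 28.5 and 31.8, in cKO.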

How the data were processed

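The authors trimmed the reads to 50 bp, mapped them to mouse mm9 and deposited 1 table of FPKM per gene. The submitters' processing notes name TopHat2 2.1.1 and Cufflinks 2.2.1. The text calls the values normalized FPKM, and the further normalization and the gene annotation are not given in the sources used here. Genes below 1 in all libraries had been dropped and lower values set to 1. The table holds no read counts, so depth and counting error are unknown. Samples of H2AK119ub1 ChIP-seq were not analysed here.

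The limits of the rule were applied to the deposited values. A gene is named if it is Usp16, a member, or 1 of the 3 genes nearest the limit on either side. Relatives and neighbours of members, the named spermatozoa and oviduct epithelium markers, Zfp133-ps and the alternative limit of 4 were added after the members were known. The members and lists were chosen with earlier results of these data known. limma 3.58.1 (R 4.3.3) was fitted to log2(FPKM + 1) over all 14392 genes and 8 libraries, with 4 groups and a trended prior, and a fold change on this scale understates that of low genes. It was tested on simulated data. Annotation was GENCODE M1 on mm9, in which 13897 symbols were found, 13775 of them at 1 locus, and transcripts were compared with blastn 2.17.0 (at least 50 bases at 90% identity). Other steps used Python 3.11.15, numpy 2.4.6 and pandas 2.3.3. Alternatives covered the limits, the scaling, the pseudocount, the fit and each library.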

Additional observations from a re-analysis of the deposited data

Results flagged for a closer look

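The effect of the maternal deletion on Usp16 differed between the stages: its log2 fold change of cKO over WT was higher by 2.65 in 2-cell embryos than in zygotes (standard error 0.48, adjusted p = 0.0251 for the interaction in limma, and 0.0163 to 0.0468 over the other settings), and Usp16 was below both WT libraries in 2 of 2 cKO zygote libraries.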

How the results depend on the processing

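Depth is unknown and 2 libraries a group limit the precision. The number of genes meeting the rule was 7 with both cKO 2-cell values at least 3, 4 at a limit of 4 (an alternative added after the data were seen) and 54 after median-ratio scaling with a common floor. It ranged from 13 to 99 when 1 library was left out: 99 and 53 without cKO 2-cell replicate 1 and 2, 40 and 26 without WT 2-cell replicate 1 and 2, and 13 and 14 without WT zygote replicate 1 and 2. The original 13 were among the genes in each of these 6 cases by construction, since leaving out a library removes a limit and adds none. Their recurrence there is no sign of stability. The share of genes that recurred in the other cKO 2-cell library was 24.5% or 13.1%, depending on which was left out. The number of members more than 3-fold higher in cKO 2-cell embryos was 13 at a 2-fold threshold and 4 with a pseudocount of 1, and ranged from 8 to 11 without 1 library. The exchanged rule gave 130 genes at a limit of 3 and 245 after median-ratio scaling. Leaving out 1 library gave 290 to 689 genes, with 689 and 463 without cKO 2-cell replicate 1 and 2, and 474 and 498 without WT 2-cell replicate 1 and 2. In cKO zygotes, limma called 0 members higher under each of the alternatives run, with Dydc2 and Smyd2 the only members above the floor in any zygote library. At an unadjusted p under 0.05 limma called 1 member, Dydc2, in the fit of the zygote libraries alone and 0 otherwise, and the adjusted p of Dydc2 in limma was 0.786 in that fit and 1 in the others. A filter on a mean FPKM of at least 2 left 4 members in the fit. In limma with a replicate block, 0 members and 1 listed gene were higher in cKO zygotes, against 3 genes without it. Between genotypes, libraries with the same replicate number had deviations that correlated at 0.50 in zygotes and −0.24 in 2-cell embryos. With 2 libraries a group, these values cannot decide whether such libraries were handled together, and pairing was not tested further. The other 28 alternatives for counts stayed within 1.5 times the value reported, but not all of them could move. Members were at the floor in both WT 2-cell libraries by the rule, so leaving out either could not change their 3-fold count. The zygote counts could change only through Dydc2 and Smyd2. The 28 are therefore no measure of stability.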
